A study of Mus musculus with 56 samples.

Results

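The genes described here were 10 genes of the piRNA pathway, namely Piwil1, Piwil2, Ddx4, Mov10l1, Tdrd9, Tdrd1, Tdrd5, Tdrd6, Mael and Asz1. They were listed by name, with no threshold on a measured value, and all 10 were found among the 53379 genes of the count table. RNA was sequenced from 7 regions of the reproductive tract of male C57BL/6 mice, which were the testis, the efferent ductules that leave it, 4 stretches of the epididymis (initial segment, caput, corpus and cauda) and the vas deferens. Mice of 3 months and of 21 months were compared, with 4 libraries for each region and age and 56 in all, and neither a treatment nor a modified allele was labelled in any group. According to the methods each mouse gave all 7 regions, taken from the organs of both sides as whole tissue, and no washing of the lumen was described. The replicate numbers are not said to mark the mouse, so the p-values measure the spread between these libraries.

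PIWI-interacting RNAs (piRNAs) are small RNAs of the germ line that guide PIWI proteins to transposon transcripts and, in meiotic and later male germ cells, to other transcripts. Long single-stranded precursors are handed by RNA helicases to the processing machinery on the mitochondrial surface, and Tudor-domain proteins hold the PIWI proteins in perinuclear granules, the intermitochondrial cement and the chromatoid body. In the mouse testis the pathway is known mainly from spermatogonia, spermatocytes and round spermatids, and somatic cells are generally taken to lack most of it.

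Depth ran from 11125279 to 20561967 counts per library with a median of 16384049. The summed markers of efferent ductules, initial segment, corpus and vas deferens were highest in the region of that name at both ages, whereas the caput list (Rnase13, Lcn9, Defb15, Teddm1b) and the cauda list (Wfdc9, Crisp4) were higher in the initial segment than in their own region. A single gene, Gm42418, took between 1.27% and 49.7% of the counts, with the highest share in caput library 2 of 3 months. Library 3 of the efferent ductules at 3 months stood apart, since the median of the 10 genes in it was 2.06% of their testis mean against 0.223% to 0.322% in the other 3 libraries. Results that rest on this library are given with and without it.

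In the testis all 10 genes were abundant, and they differed widely among themselves. On a scale of CPM, the count of a gene relative to the scaled total of its library, per kilobase of exon, which allows genes to be compared, Mael (ENSMUSG00000040629, GRCm38 chr1:166201201-166238747, minus strand) was highest at 655.1 ± 37.4 (SD, n = 4) at 3 months and made up 51.3% of the summed level of the 10. Mael is a nuage protein needed for transposon silencing in meiosis. Ddx4 (ENSMUSG00000021758, chr13:112598333-112652475, minus strand), the germ-cell RNA helicase also called VASA, followed at 161.8 ± 10.4. Tdrd6 (ENSMUSG00000040140, chr17:43615335-43630299, minus strand), a multi-Tudor protein of the chromatoid body of spermatids, was at 160.7 ± 14.6, which did not differ from Ddx4 beyond the spread. Of the PIWI genes, Piwil1 (MIWI, ENSMUSG00000029423, chr5:128702524-128755474, plus strand), whose protein carries pachytene piRNAs, was at 98.0 ± 3.51. Piwil2 (MILI, ENSMUSG00000033644, chr14:70372477-70429383, minus strand), which acts from fetal germ cells to round spermatids, was at 44.2 ± 1.97. Piwil1 was thus the more abundant PIWI gene of the testis on the scale per kilobase. Tdrd1 (ENSMUSG00000025081, chr19:56826209-56870012, plus strand), a Tudor protein that binds MILI in the intermitochondrial cement, was at 52.1 ± 1.70. Tdrd9 (ENSMUSG00000054003, chr12:111971559-112068854, plus strand), a helicase with a Tudor domain, was at 43.9 ± 1.96. Mov10l1 (ENSMUSG00000015365, chr15:88982909-89055152, plus strand), the helicase that feeds precursors into processing, was at 30.1 ± 1.19. The lower end of the range was held by a Tudor gene and the mitochondrial gene. Tdrd5 (ENSMUSG00000060985, chr1:156255296-156303664, minus strand), required for the assembly of the chromatoid body, was at 22.5 ± 0.477. Asz1 (ENSMUSG00000010796, chr6:18050964-18109061, minus strand), a protein of the outer mitochondrial membrane also called GASZ, was lowest at 9.23 ± 1.17. The order of the 10 means was the same at 21 months, and the levels of Piwil2 and Tdrd9 lay within 1 SD of each other at both ages. Positions are those of GENCODE M21.

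**Figure D1:**
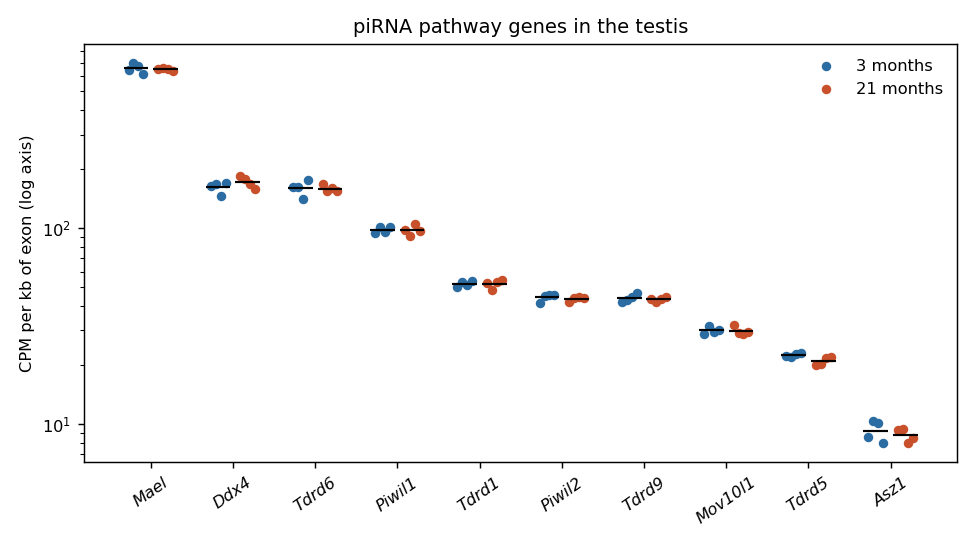
Level of the 10 piRNA pathway genes in the 8 testis libraries, in CPM per kilobase of exon on a log axis, with 1 point per library, blue for 3 months and orange for 21 months, and a bar for each mean. Mael lies near 655.1 and Asz1 near 9.23 at 3 months, and the points of the ages lie side by side for every gene.

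The windows of 250 bases before the start of transcription were read for 8 of the genes (GRCm38.p6). The set of promoter windows used here held none for Piwil2 and Tdrd6. For each gene the window nearest to the GENCODE start was taken, out of 3 listed for Tdrd1. The start used for Piwil1 lay 33722 bases from its GENCODE start, inside the gene span given above. The palindrome CACGTG, an E-box that was searched for after the sequences had been read and that is its own reverse complement, was in 6 of the 8 windows (Piwil1, Ddx4, Mov10l1, Tdrd9, Tdrd1 and Mael) and in 6.02% of all 32851 windows. The motif AACNG, searched on both strands, was in 6 of the 8 and in 74.2% of all windows, and CCAAT, on both strands, was in 5 of the 8 and in 33.8% of all windows. The motifs were selected with the sequences in view, so these shares are descriptions. The 3 windows below end where the annotated gene starts, and are shown because Tdrd9 holds the E-box in 2 places, Tdrd1 holds it next to the start and Asz1 lacks it. Capitals mark CACGTG, and each sequence runs 5′ to 3′ on the strand of the gene.
Tdrd9, chr12:111971309-111971558, plus strand: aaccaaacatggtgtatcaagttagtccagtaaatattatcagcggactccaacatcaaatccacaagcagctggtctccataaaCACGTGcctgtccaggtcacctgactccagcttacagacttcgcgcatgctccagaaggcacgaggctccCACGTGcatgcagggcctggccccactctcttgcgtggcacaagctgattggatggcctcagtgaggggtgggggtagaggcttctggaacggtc
Tdrd1, chr19:56825959-56826208, plus strand: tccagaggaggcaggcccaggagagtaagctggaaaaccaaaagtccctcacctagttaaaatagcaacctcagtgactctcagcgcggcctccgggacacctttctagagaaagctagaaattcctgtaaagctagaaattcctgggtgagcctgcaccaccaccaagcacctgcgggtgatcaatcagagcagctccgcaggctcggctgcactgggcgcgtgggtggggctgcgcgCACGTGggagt
Asz1, chr6:18109062-18109311, minus strand: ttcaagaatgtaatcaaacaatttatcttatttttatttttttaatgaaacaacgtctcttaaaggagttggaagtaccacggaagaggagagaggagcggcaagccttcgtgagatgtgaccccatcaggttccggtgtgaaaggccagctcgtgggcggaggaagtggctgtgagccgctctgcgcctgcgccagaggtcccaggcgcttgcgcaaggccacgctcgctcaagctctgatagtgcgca
The E-box began 165 and 95 bases before the start in Tdrd9 and 11 bases before it in Tdrd1.

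Every member was higher in the testis than in the mean of the 6 ducts at both ages. The comparison asks how far these genes mark the testis within the tract. The log2 difference ran from 5.81 ± 0.174 (SE) for Piwil2 to 8.87 ± 0.224 for Piwil1 at 3 months and from 5.72 ± 0.158 for Piwil2 to 9.21 ± 0.167 for Piwil1 at 21 months. All 10 passed the test (edgeR quasi-likelihood F-test, Benjamini-Hochberg adjusted p between 2.55e-26 and 3.67e-22 for Tdrd1 and Asz1 at 3 months), at both ages and under each alternative that was run. The share of all genes called higher in the testis was 45.2% at 3 months and 43.1% at 21 months. In such whole tissue, fewer cells of a type and less RNA per cell cannot be told apart.

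Other genes of the pathway were less uniform. Of 20 further piRNA genes, 18 were higher in the testis at 3 months and 17 at 21 months, with medians of 5.53 and 5.35 on the log2 scale beside 0.23 and 0.10 over all genes tested. Among those with the smallest adjusted p at both ages, Tdrd12, a Tudor protein with a helicase domain, differed by 7.78 and 7.53 on the log2 scale at 3 and 21 months (adjusted p = 1.83e-27 and 9.22e-29). Pld6, a nuclease of the mitochondrial surface that cuts piRNA precursors, differed by 6.73 and 6.39 (adjusted p = 1.9e-26 and 2.04e-26), and Tdrd7, a Tudor protein of the chromatoid body, by 3.18 and 2.95 (adjusted p = 1.61e-28 and 6.62e-28). The 1 gene called lower in the testis, which is named after its values were seen, was the third PIWI gene Piwil4 (MIWI2), by -1.75 and -2.66 (adjusted p = 6.3e-08 and 2.89e-10). Of 10 AGO and microRNA pathway genes, 4 were higher and 4 lower at 3 months, and 4 were higher and 5 lower at 21 months, where 32.4% and 34.4% of all genes were called lower in the testis and the shares called higher are those given above. Tarbp2, a partner of the microRNA nuclease Dicer, was higher in the testis by 2.86 and 2.53 (adjusted p = 1e-22 and 2.07e-18), whereas Ago1, an Argonaute of the microRNA pathway, was lower by -2.48 and -2.47 (adjusted p = 4.55e-20 and 6.56e-18).

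Age left the testis levels of the 10 genes nearly where they were. None of the 10 was called between 21 and 3 months by edgeR (lowest adjusted p = 0.555), none had an unadjusted p under 0.05, and none was called by DESeq2 or by the rule of the study, for which an age difference counts if it reaches 1.5-fold with a p under 0.05 before adjustment. Over all genes, 0.563% were called in the testis by edgeR and 2.71% by the rule of the study. The log2 fold changes ran from -0.10 ± 0.055 (SE) for Tdrd5 to 0.09 ± 0.058 for Ddx4, with a median of -0.02 over the 10 genes beside -0.01 over all genes. Tdrd5 was at 154.0, 152.7, 157.4 and 160.0 CPM in the 3-month libraries and at 139.2, 140.6, 150.5 and 152.2 CPM in the 21-month libraries. These ranges did not overlap, where 3.17% of all genes were lower at 21 months without overlap, but they did so when CPM was computed on the plain library size. Piwil1 was at 413.4, 440.9, 414.6 and 440.0 CPM at 3 months and at 427.3, 399.4, 455.8 and 420.1 CPM at 21 months, and these ranges overlapped. Of the 7 genes of the spermatogonia list 1 was called, Kit, the receptor of differentiating spermatogonia, which rose with age in the testis (log2 0.41 ± 0.065, adjusted p = 0.00198). The other 6 were not called, with log2 changes from -0.35 for Sohlh1 to 0.37 for Gfra1, the median over the 7 was -0.09, and no gene of the spermatocyte and spermatid lists was called there.

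In the ducts most of the 10 genes were present at about 1% of their testis level or less, while 4 of them stood out in a particular duct. Piwil2 reached 21.7% of its testis mean in the corpus at 3 months and 29.4% at 21 months. Tdrd5 reached 5.55% and 6.24% in the initial segment and 1.86% and 3.91% in the caput. Asz1 reached 5.31% and 1.79% in the initial segment, and Tdrd1 1.94% and 3.38% in the caput. The other 6 genes stayed between 0.0197% and 1.29% of their testis means in every duct at either age, and the higher bound was that of Tdrd9 in efferent ductules at 3 months, with library 3 included. In the other 3 libraries of that group Tdrd9 was at 0.714%, 0.687% and 0.554%, and the highest mean of the 6 genes apart from that group was 1.21%, for Tdrd9 in the cauda at 21 months.

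**Figure D2:**
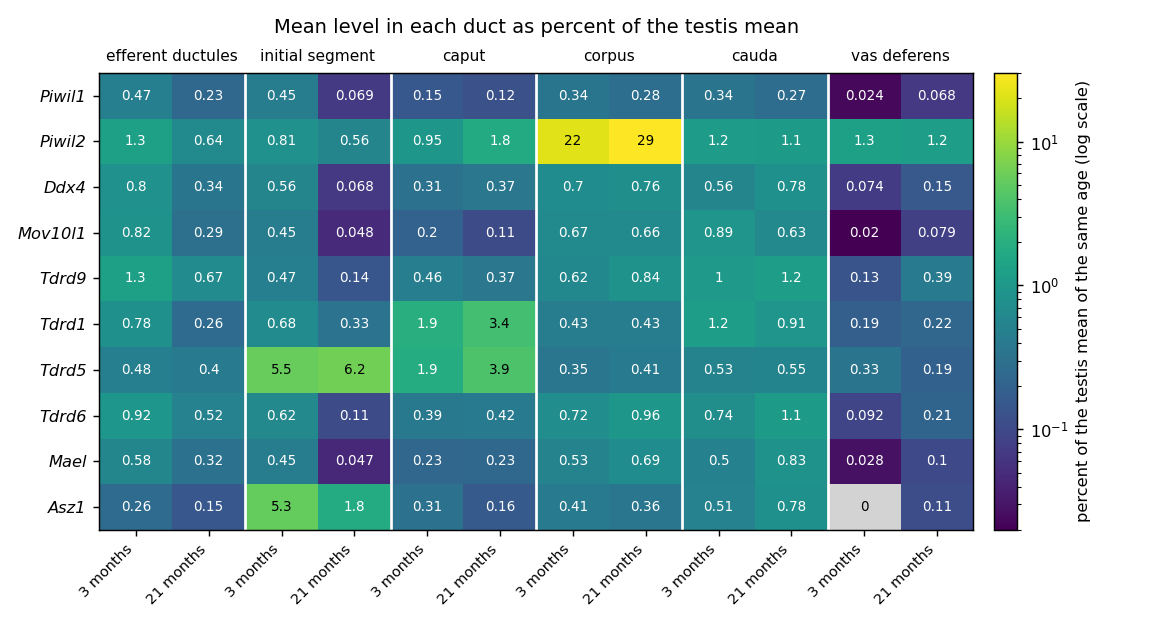
Mean level of each gene in each duct and age as a percent of its testis mean of the same age, with 4 libraries per cell and colour on a log scale, and a grey cell for the group in which all 4 libraries had 0 counts. The corpus cells of Piwil2 (21.7% and 29.4%) and the initial segment cells of Tdrd5 and Asz1 stand above the other cells of their rows.

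Piwil2 was the clearest case. In the corpus it was at 51.1, 50.6, 50.7 and 50.6 CPM in the 3-month libraries and at 64.8, 66.8, 62.8 and 75.6 CPM in the 21-month libraries. In the other ducts its libraries lay between 0.728 and 7.95 CPM, so that no corpus library overlapped with them. Against the mean of the other 5 ducts, corpus Piwil2 was higher by 4.33 ± 0.195 on the log2 scale at 3 months (edgeR adjusted p = 4.83e-18) and by 4.91 ± 0.175 at 21 months (adjusted p = 8.61e-20), where 20.4% and 21.4% of all genes were called higher in the corpus. It remained below the testis by 2.21 ± 0.283 and 1.63 ± 0.251 (adjusted p = 3.04e-08 and 1.03e-06). From the corpus downwards the next regions in the order were vas deferens at 3 months (2.98 ± 0.482 CPM) and caput at 21 months (4.07 ± 2.84 CPM), and no pair of neighbours among these lower 5 ducts differed beyond the spread at either age.

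Spermatocyte and spermatid markers did not share this level. In the corpus the spermatocyte list summed to 0.655% and 0.705% of its testis mean at 3 and 21 months, the spermatid list to 2.85% and 3.22%, and the other 9 piRNA pathway genes had a median of 0.532% and 0.663%. The spermatogonia list was mixed, and Gfra1, Zbtb16, Kit and Nanos3 were at 2117%, 304%, 76.9% and 46.0% of their testis means in the corpus at 3 months, while Stra8, Sohlh1 and Dmrt1 were at 0.565% or less. A gene of the Leydig list, the steroidogenic enzyme Cyp17a1, was in contrast at 228 ± 11.2 CPM in the corpus at 3 months and 257 ± 42.9 at 21 months, which was 103% and 149% of its testis mean. Further Leydig genes were low in the corpus, with Insl3 at 2.30% and 2.54%, Cyp11a1 at 0.285% and 0.129% and Hsd3b6 at 0.140% and 0.0534% of the testis. Star, also of that list, was less so, at 3.83 and 4.725 CPM in the corpus beside 33.8 and 68.5 CPM in the testis. Among 17861 genes, those with the highest correlation with Piwil2 over the 48 duct libraries on the log2(CPM + 0.1) scale were, as a choice made after the level of Piwil2 was seen, Tg (r = 0.940), Mageb7-ps (r = 0.929) and Slc23a4 (r = 0.929), in libraries that differ by region and share their scaling. The gene counts do not say which exons of Piwil2 were covered.

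Piwil2 in the corpus rose with age (log2 0.40 ± 0.089, adjusted p = 0.0206), and it was the only gene of the 10 to be called there, where 1.5% of all genes were called higher. Its ranges did not overlap between ages, where 4.44% of all genes were higher without overlap, but did so on the plain library size, where the change was 0.24 with an adjusted p of 0.68. The fold change lay below the 1.5 that the rule of the study requires. The call was lost without 3-month library 2 or 3 or without 21-month library 2 or 4 (adjusted p = 0.063, 0.0905, 0.075 and 0.0761), and in a fit of all 56 libraries (adjusted p = 0.618). Piwil4 also rose in the corpus (log2 1.01 ± 0.202, adjusted p = 0.0107), from 3.02 ± 0.691 to 6.13 ± 1.05 CPM.

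In the caput Piwil2 varied widely, with 3.66, 1.34, 1.15 and 2.71 CPM at 3 months and 4.403, 7.95, 1.76 and 2.17 CPM at 21 months. It was called lower in the caput than in the other 5 ducts at 3 months (-1.03 ± 0.307, with 17.2% of all genes) and was not called at 21 months. The Leydig list summed to 18.5, 10.6, 11.3 and 11.8 CPM in the same 3-month libraries and to 23.4, 37.6, 13.0 and 14.1 CPM in the same 21-month libraries, so that at 21 months both were highest in library 2. The part of neighbouring corpus tissue in these values was not tested.

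Tdrd5 was highest among the ducts in the initial segment. It was at 11.1, 11.5, 5.54 and 6.52 CPM in the 3-month libraries and at 10.8, 9.80, 7.29 and 8.44 CPM in the 21-month libraries. The ages overlapped, and all 8 values lay above every library of efferent ductules, corpus, cauda and vas deferens, whose highest was 2.30 CPM. The difference from the other 5 ducts was 3.32 ± 0.265 on the log2 scale at 3 months (adjusted p = 5.38e-12) and 3.50 ± 0.168 at 21 months (adjusted p = 7.44e-17), beside 19.6% and 21.3% of all genes called higher there. In the order of regions, testis, initial segment and caput each differed from the next at both ages, whereas the cauda, which followed, did not differ from the region after it (adjusted p = 0.901 and 0.703). The exons of Tdrd5 share 176 bases with the antisense gene 4930518J20Rik, and the strand setting of the counting was not given in the sources used here. That gene had 4 to 12 counts in the 3-month and 0 to 2 counts in the 21-month initial segment libraries, against 92 to 192 and 109 to 184 counts for Tdrd5. In the testis, whose level is the base of the percentages of Tdrd5, it had 810 to 970 and 764 to 912 counts, against 2690 to 2885 and 2548 to 2762 for Tdrd5.

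Asz1 shared the initial segment but at a far lower level, and it fell with age. At 3 months it had 23, 24, 26 and 14 counts, or 1.64, 1.44, 1.56 and 0.904 CPM, and at 21 months 3, 6, 11 and 7 counts, or 0.176, 0.423, 0.735 and 0.451 CPM. All 3-month libraries lay above all 21-month libraries. Against the other 5 ducts it was higher by 4.48 ± 0.410 on the log2 scale at 3 months (adjusted p = 3.9e-10) and by 2.84 ± 0.442 at 21 months (adjusted p = 4.14e-06). The first value is no bound, since Asz1 had 0 counts in all 4 vas deferens libraries at 3 months, which allows a level of up to 0.0396 CPM over the group. Over the 48 duct libraries the nearest of the other 9 genes to Asz1 was Tdrd5 (r = 0.61), and the nearest to Tdrd5 was Asz1. The nearest genes outside the 10, looked up after these levels were seen, were Mup6, Cst8 and Oxr1 for Tdrd5 (r = 0.915, 0.915 and 0.913) and Pdpn, Slco6b1 and Ryk for Asz1 (r = 0.872, 0.854 and 0.854).

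**Figure D3:**
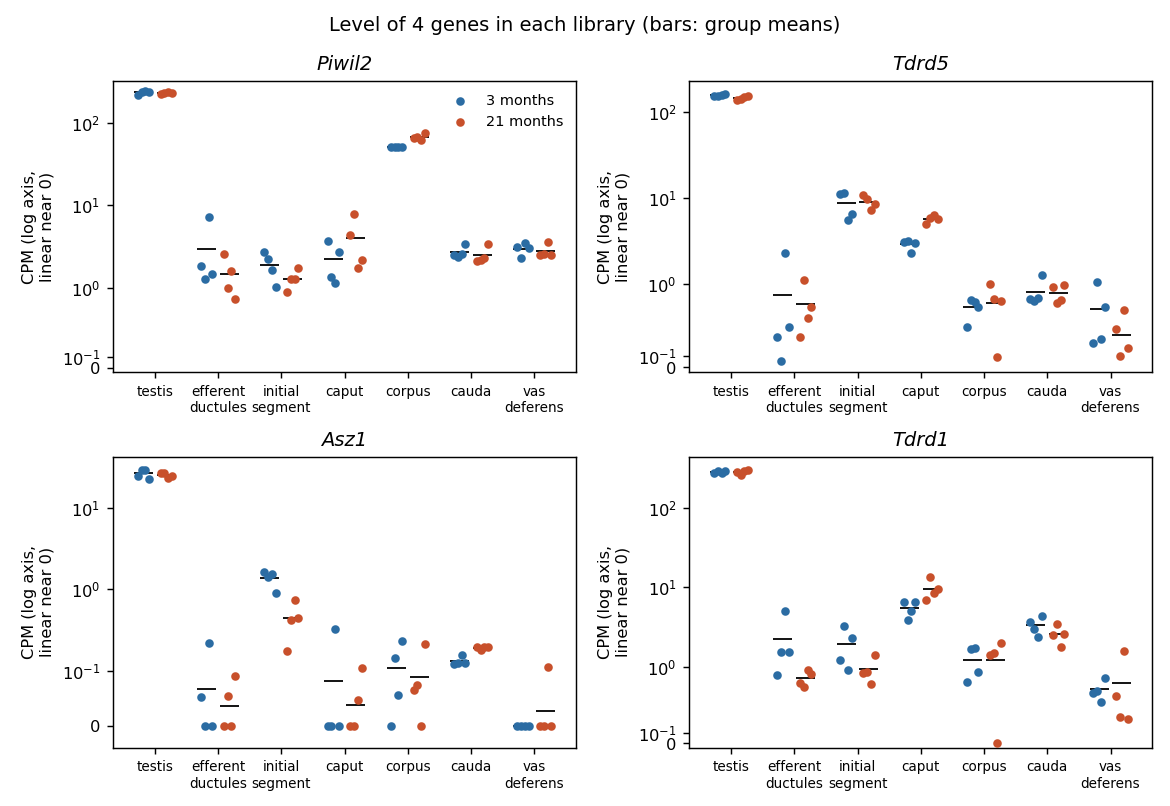
CPM of Piwil2, Tdrd5, Asz1 and Tdrd1 in each of the 56 libraries by region, on an axis that is logarithmic and becomes linear near 0, with blue points for 3 months, orange points for 21 months and bars for the means of 4 libraries. Piwil2 is near 50.8 and 67.5 CPM in the corpus, Tdrd5 and Asz1 are highest among ducts in the initial segment and Tdrd1 is highest in the caput.

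Tdrd1 had its highest duct level in the caput, at 6.60, 3.88, 4.99 and 6.54 CPM at 3 months and 6.85, 13.3, 8.51 and 9.61 CPM at 21 months. The difference from the other 5 ducts was 1.83 ± 0.256 on the log2 scale at 3 months (adjusted p = 8.13e-07) and 3.18 ± 0.232 at 21 months (adjusted p = 2.27e-12), where 17.9% and 17.5% of all genes were called higher in the caput. At 3 months the caput and the next region, the cauda (3.37 ± 0.872 CPM), did not differ beyond their spread (adjusted p = 0.0804), and at 21 months they did (adjusted p = 1.2e-05). Tdrd5 in the caput, although below the initial segment, was also higher than the mean of the other 5 ducts, by 1.40 ± 0.329 at 3 months (adjusted p = 0.00101) and by 2.58 ± 0.177 at 21 months (adjusted p = 5.72e-13).

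Both Tudor genes rose with age in the caput. Tdrd5 went from 3.05, 3.21, 2.30 and 3.02 CPM to 4.95, 5.90, 6.27 and 5.65 CPM, a log2 change of 0.94 ± 0.188 (adjusted p = 0.011). Tdrd1 changed by 0.74 ± 0.213 (adjusted p = 0.0497), which sits at the threshold. The ranges of both genes did not overlap between ages, also on the plain library size, although only 1 of the 2 genes was called with that scaling. In the caput 3.09% of all genes were called higher and 8.62% were higher at 21 months without overlap. Tdrd5 was called in each of the 8 fits that left out a library (highest adjusted p = 0.0488) but not in a fit of all 56 libraries (adjusted p = 0.0526). Tdrd1 was lost in 7 of those 8 fits and without Gm42418 (adjusted p = 0.0511), and without 3-month library 2, which had the highest share of that gene, its adjusted p was 0.0935. In the caput 2 of the 11 spermatid genes, Prm1 and Prm2, fell with age (log2 -0.73 and -0.83, adjusted p = 0.0184 and 0.0216), where 5.05% of all genes were called lower, and no spermatocyte gene was called. Of the further piRNA genes, Tdrd7 rose by 0.39 ± 0.095 (adjusted p = 0.025) and Wdr77, a cofactor of the arginine methyltransferase Prmt5, by 0.66 ± 0.155 (adjusted p = 0.0233). Wdr77 fell with age in the vas deferens (log2 -0.61 ± 0.094, adjusted p = 0.00203), where 8.47% of all genes were called lower.

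The largest number of age calls was in the initial segment, where 7 of the 10 genes fell. Of all genes tested 6.35% were called there in either direction and 3.01% were called lower at 21 months, and the median log2 change was -1.95 over the 10 genes and -0.01 over all genes tested. Of the PIWI genes, Piwil1 went from 1.21, 3.65, 1.75 and 1.03 CPM to 0.646, 0, 0.334 and 0.193 CPM (log2 -2.48 ± 0.574, adjusted p = 0.0186), while Piwil2 was not called (log2 -0.41, adjusted p = 0.569) with 1.90 ± 0.728 and 1.29 ± 0.351 CPM. All 3-month libraries of Piwil1 lay above those of 21 months. At 3 months Piwil1 was also called higher in the initial segment than in the other 5 ducts (log2 1.29 ± 0.426, adjusted p = 0.016), a call that was lost without the number 2 libraries (log2 0.95, adjusted p = 0.162). At 21 months the difference was log2 -1.13 ± 0.467, with an adjusted p of 0.0539 that missed the threshold. At that age 6 of the 10 genes were called lower in the initial segment than in the other 5 ducts, with 19.1% of all genes, from -1.79 ± 0.300 for Piwil2 to -2.64 ± 0.538 for Mael. At 3 months 1 was called lower, Piwil2 (-1.38 ± 0.314, with 17.1% of all genes).

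Of the helicases, Ddx4 went from 3.0, 4.90, 1.26 and 1.74 CPM to 0.352, 0.212, 0.267 and 0.580 CPM (log2 -2.76 ± 0.457, adjusted p = 0.0027). Tdrd9 went from 1.11 ± 0.451 to 0.337 ± 0.132 CPM (log2 -1.54 ± 0.415, adjusted p = 0.0408). Mov10l1 had 12, 13, 7 and 3 counts at 3 months and 3, 0, 0 and 1 counts at 21 months (log2 -2.85 ± 0.799, adjusted p = 0.0493). At this depth the 21-month level of Mov10l1 was close to what a count of 0 allows.

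Of the other Tudor genes, Tdrd6 fell in the initial segment, from 6.64, 11.6, 4.51 and 5.23 CPM to 2.11, 1.34, 0.602 and 0.773 CPM (log2 -2.37 ± 0.356, adjusted p = 0.00147). Tdrd1 (log2 -0.92, adjusted p = 0.223) and Tdrd5 (log2 0.22, adjusted p = 0.663) were not called. Mael fell from 3.71, 10.1, 2.89 and 3.74 CPM to 1.06, 0.141, 0.201 and 0.709 CPM (log2 -3.06 ± 0.494, adjusted p = 0.00226), and Asz1, whose values are given above, by 1.49 ± 0.400 on the log2 scale (adjusted p = 0.0399).

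In all 7 genes that fell, the ranges of the ages did not overlap, on either scale of CPM, whereas 14.6% of all genes were lower at 21 months without overlap on the common scale of the 56 libraries. On this scale the median of 15905 genes above 1 CPM at both ages was shifted by -0.15 on the log2 scale in the initial segment, which is small beside the changes above. Library 2 of 3 months was highest for Piwil1, Ddx4, Tdrd9, Tdrd6 and Mael, and without it 3 genes were called. The count was also 3 without 21-month library 4, and 4 without 3-month library 1 or 21-month library 2. Over the 8 fits that each left out a library it lay between 3 and 6, and every call was a fall.

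Most spermatid and some spermatocyte markers fell with these genes. In the initial segment 9 of 11 spermatid genes and 4 of 10 spermatocyte genes fell with age, where 3.01% of all genes were called lower. The summed levels of these lists went from 0.694% to 0.147% and from 0.638% to 0.229% of the testis mean. The spermatid sum ranged from 42.6 to 139 CPM at 3 months and from 13.5 to 33.7 CPM at 21 months, and none of the genes of these lists was at 0 in all 4 libraries of either age. The spermatid genes with the smallest adjusted p were Tnp2, a transition protein (log2 -3.34, adjusted p = 0.000989), Prm1, a protamine (log2 -2.68, adjusted p = 0.00148), and Gapdhs, the sperm glycolytic enzyme (log2 -1.96, adjusted p = 0.00148). Stag3, a meiotic cohesin, led the spermatocyte list (log2 -1.36, adjusted p = 0.00604). In that list Meiob went from 1.04 to 1.27 CPM and Dmc1 from 0.476 to 0.468 CPM. No tested gene of the spermatogonia list was called in the initial segment, with log2 changes from -1.06 for Sohlh1 to 0.21 for Zbtb16. The 6 piRNA pathway genes with no duct of high level (Piwil1, Ddx4, Mov10l1, Tdrd9, Tdrd6 and Mael) summed to 0.519% of the testis at 3 months and 0.0781% at 21 months. The part of testicular RNA or sperm in their fall was not tested. Of the 17 further piRNA genes tested, Rnf17 (log2 -1.53, adjusted p = 0.0275) and Gtsf1 (log2 -3.002, adjusted p = 0.0479) fell.

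**Figure D4:**
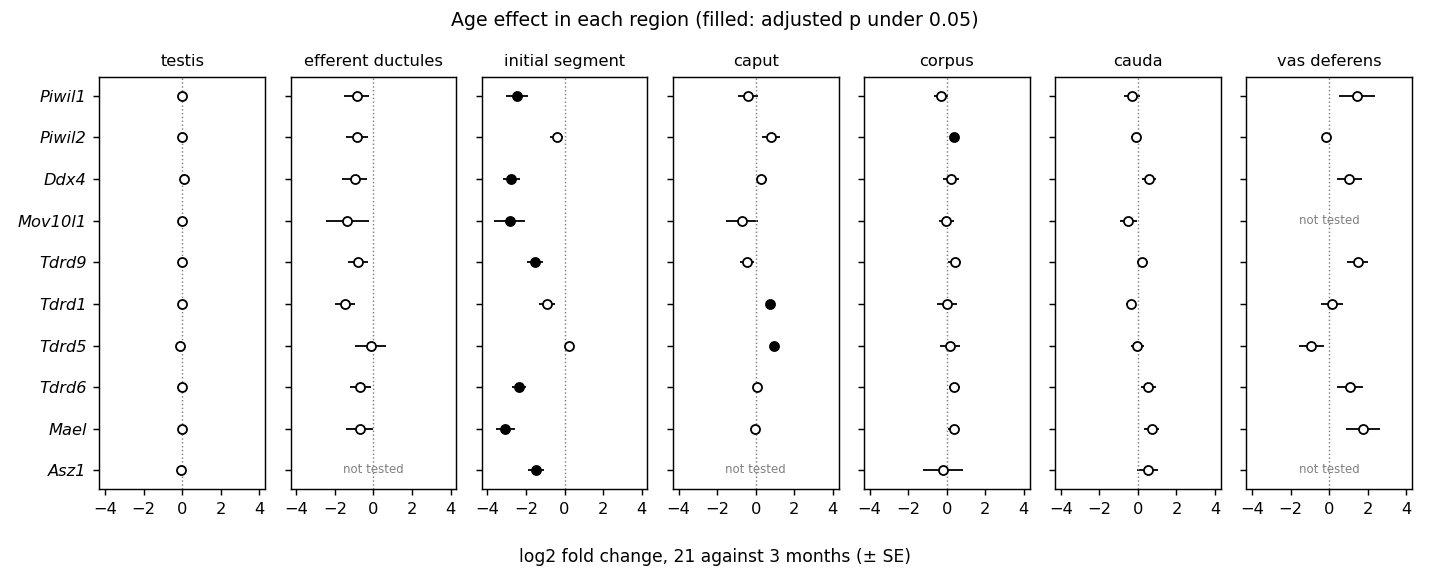
Log2 fold change between 21 and 3 months of each gene in each region, with bars of 1 SE and filled points for an adjusted p under 0.05 from the fit of the 8 libraries of that region. The filled points are 7 falls in the initial segment, 2 rises in the caput and 1 rise in the corpus, and the testis points lie between -0.10 and 0.09.

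The age effect itself differed between ducts for several of the genes. In a fit of all 56 libraries, the age effect in the initial segment was below the mean of the other 5 ducts for Mael (log2 -3.63 ± 0.745, adjusted p = 0.00397), Tdrd6 (-2.80 ± 0.611, adjusted p = 0.00666), Ddx4 (-3.14 ± 0.743, adjusted p = 0.0124) and Piwil1 (-2.56 ± 0.707, adjusted p = 0.0374), where 1.65% of all genes were called lower. Tdrd1 had a more positive age effect in the caput (1.32 ± 0.390, adjusted p = 0.0251, with 4.11% of all genes called higher) and Tdrd9 in the vas deferens (2.06 ± 0.580, adjusted p = 0.0163, with 7.03%). Tdrd5 in the caput missed the threshold (1.16 ± 0.398, adjusted p = 0.0634). The age effect in the testis differed from that in the ducts for 0 of the 10 genes (adjusted p = 1.0 for each, 0 at an unadjusted p under 0.05, none by DESeq2, and 0.0649% of all genes called), although the intervals were wide at these low duct counts. The 6 calls of the ducts became 1 when all libraries of number 2 were left out and 3 without those of number 4. Without library 3 of the efferent ductules at 3 months all 6 were kept, and Mov10l1 (-3.27 ± 0.821, adjusted p = 0.0128) and Tdrd9 (-2.03 ± 0.444, adjusted p = 0.0034) were called lower as well in the initial segment. These fits share libraries with the age comparisons above.

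In efferent ductules 0 of 9 genes tested were called with age by edgeR, 1 had an unadjusted p under 0.05, DESeq2 called 1, and 6.99% of all genes were called. All 9 were lower at 21 months with a median log2 change of -0.86, but without library 3 of 3 months 7 of the 9 were higher and the median was 0.32. In that library Mael was at 19.2 CPM against 3.50, 1.69 and 1.77, Tdrd6 at 27.7 against 6.05, 3.80 and 4.31, and Ddx4 at 11.5 against 1.75, 1.37 and 1.06. Its spermatocyte sum was 35.4 CPM and its spermatid sum 246 CPM, against 10.3 and 56.2 CPM in library 1. At 3 months, Piwil1, Ddx4, Mov10l1, Tdrd9, Tdrd6 and Mael were called higher in efferent ductules than in the other 5 ducts (log2 1.19 to 1.66), beside 28.9% of all genes. Without the library none of the 6 was called, with log2 differences from -0.82 for Mov10l1 to 0.55 for Tdrd9. Without it Piwil2 (-1.52 ± 0.218, adjusted p = 8.72e-07) and Tdrd5 (-2.57 ± 0.414, adjusted p = 5.3e-06) were called lower in efferent ductules at 3 months. The calls of the other 5 ducts at 3 months were all kept without it, and in the initial segment Ddx4 (0.84 ± 0.294), Tdrd6 (0.66 ± 0.183) and Mael (1.10 ± 0.239) were then called higher as well as Piwil1, Tdrd5 and Asz1, with 19.8% of all genes. In efferent ductules at 21 months Tdrd9 was called higher than in the other 5 ducts (0.51 ± 0.206, adjusted p = 0.0424, with 24.6% of all genes). Piwil2 (-1.71 ± 0.300), Tdrd1 (-1.29 ± 0.396) and Tdrd5 (-1.25 ± 0.288) were called lower in efferent ductules at that age, with 20.1% of all genes. The initial segment list summed to 2.37, 602.4, 249.1 and 2.19 CPM in the 4 efferent ductule libraries of this age, against a highest value of 3.12 CPM at 3 months. The part of initial segment tissue in these values was not tested. Of the further piRNA genes, Mybl1 fell with age in efferent ductules (edgeR, log2 -0.75 ± 0.180, adjusted p = 0.0351).

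In the corpus and cauda several of the remaining genes lay above the mean of the other 5 ducts at 21 months, and others did not. In the cauda, Mael (1.99 ± 0.321), Mov10l1 (1.85 ± 0.350), Tdrd6 (1.53 ± 0.321), Ddx4 (1.51 ± 0.259), Tdrd9 (1.43 ± 0.176), Piwil1 (0.89 ± 0.339) and Tdrd1 (0.77 ± 0.295) were called higher on the log2 scale, with 23.0% of all genes. Tdrd5 (-0.95 ± 0.268) and Piwil2 (-0.89 ± 0.265) were called lower in the cauda, with 15.4% of all genes, and Asz1 was not called. Tdrd1, at 2.57 CPM in the cauda, remained below its caput level. In the corpus, Mov10l1 (2.08 ± 0.359), Mael (1.79 ± 0.334), Ddx4 (1.57 ± 0.267), Tdrd6 (1.43 ± 0.329), Piwil1 (1.07 ± 0.350) and Tdrd9 (0.91 ± 0.197) were called higher besides Piwil2, with 21.4% of all genes. Tdrd5 was called lower in the corpus (-1.25 ± 0.291), with 16.2% of all genes, and Tdrd1 and Asz1 were not called. At 3 months Mov10l1, Tdrd9, Tdrd1 and Mael were called higher in the cauda, with 23.7% of all genes, and Mael besides Piwil2 in the corpus, with 20.4%. Piwil2 was called lower in the cauda of this age (-0.75 ± 0.290, with 9.55% of all genes) and Tdrd5 in the corpus (-1.43 ± 0.469, with 16.2%). Without library 3 of the efferent ductules, which is among the ducts compared with, Piwil1, Ddx4 and Tdrd6 were called higher as well in the cauda at 3 months, with 20.9% of all genes, so that the 7 genes called higher there were those of 21 months. In the corpus Piwil1, Ddx4, Mov10l1 and Tdrd6 were then called higher as well, with 21.1% of all genes, and Tdrd1 was called lower (-0.65 ± 0.257, adjusted p = 0.0448). The cauda is the store of sperm, and the spermatid list was highest there among the ducts, at 5.31% and 4.56% of the testis mean. The part of sperm or other germ-cell RNA in the cauda and corpus calls was not tested. With age 0 of 10 genes were called in the cauda by edgeR and by DESeq2, 0 had an unadjusted p under 0.05, and 0.128% of all genes were called.

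At 3 months the vas deferens had the lowest mean of the 7 regions for 9 of the 10 genes. For Ddx4, Mov10l1, Tdrd1, Tdrd5 and Asz1 it did not differ from the second lowest region beyond the spread (edgeR adjusted p between 0.05 and 0.956). At 21 months the lowest mean was that of the vas deferens or of the initial segment, and the lowest and second lowest regions did not differ beyond their spread for 8 of the 10 genes. At 3 months Asz1 had 0 counts in all 4 libraries, Mov10l1 had 0, 0, 2 and 0 counts and Piwil1 1, 4, 2 and 0 counts, and 9 of the 10 genes were called lower than in the other 5 ducts, with 25.2% of all genes. At 21 months 7 of the 10 were called lower there (all but Piwil2, Tdrd9 and Asz1), with 16.8% of all genes. The exception at 3 months was Piwil2, at 3.12, 2.31, 3.46 and 3.02 CPM, or 1.27% of the testis. With age 0 of the 8 genes tested were called by edgeR and by DESeq2, with 1 and 2 at an unadjusted p under 0.05, although 19.9% of all genes were called. Tdrd9 came closest, from 0.635, 0.438, 0.0495 and 0.146 CPM to 0.893, 0.807, 1.18 and 0.799 CPM (log2 1.48 ± 0.551, adjusted p = 0.0814), and the ranges did not overlap, beside 15.3% of all genes that were higher without overlap. Without 3-month library 1 it was called (adjusted p = 0.0433). The median of the 8 changes was 1.07, and -0.03 without 21-month library 3, in which Tdrd6 was at 6.81 CPM against 0.757 to 1.06 CPM in the other 3 libraries.

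**Figure D5:**
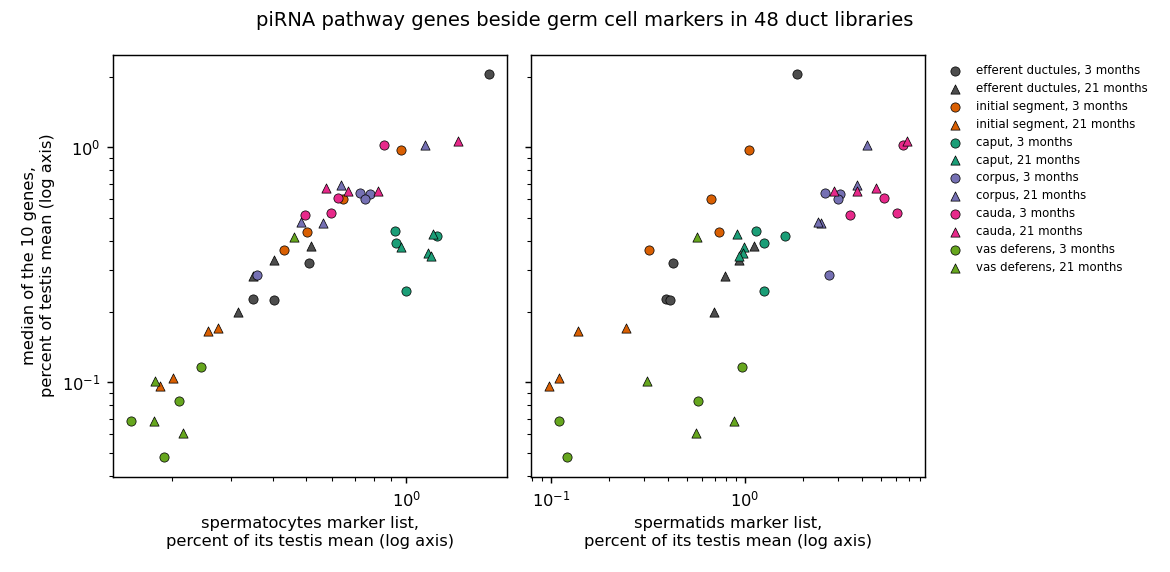
Median of the 10 genes in each of the 48 duct libraries against the summed level of the spermatocyte list on the left and of the spermatid list on the right, each as a percent of the testis mean of the same age on log axes, with colours for regions, circles for 3 months and triangles for 21 months. Library 3 of the efferent ductules at 3 months is at the top of both panels at 2.06% and farthest to the right in the left panel, while cauda and corpus libraries lie farther right in the right panel, and the initial segment triangles lie below the initial segment circles.

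Over the 48 duct libraries the genes of the pathway varied together to different degrees, as a description of libraries that differ in region and depth. Tdrd6 and Mael were closest (r = 0.963), followed by Ddx4 with Tdrd6 (0.934), Piwil1 with Mael (0.87), Mov10l1 with Mael (0.85) and Tdrd9 with Mael (0.81). Tdrd1, Tdrd5 and Asz1 had their nearest partner among themselves (0.516 to 0.61), and Piwil2 had no closer partner than Mov10l1 (0.433). The genes outside the 10 that were most like their mean, among 10460 with at least 10 CPM in the testis, were Fsip2, a protein of the sperm fibrous sheath (r = 0.942), Gm884 (0.939), 4932415D10Rik (0.934), Clgn, a testis chaperone (0.933), and Allc (0.926). Fsip2 was at 2001 CPM on average in the testis and at 5.41 CPM in the ducts.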

How the data were processed

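RNA of 7 regions at 2 ages was sequenced by the authors as stranded total RNA libraries, and reads were mapped with HISAT2 to GRCm38 (mm10), with cutadapt and HTSeq named in the submitters' processing notes. The deposited values were raw counts per gene for 56 libraries, and the strand setting and annotation release were not given in the sources used here. The members, lists and motifs were chosen with earlier results of these data known.

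Counts were tested with edgeR 4.0.16 (R 4.3.3, limma 3.58.1) (quasi-likelihood F-test, TMM scaling) after genes whose counts summed to less than 10 over the fitted libraries had been dropped. P-values were adjusted by the Benjamini-Hochberg method over all genes tested and called under 0.05, and SE is the log2 fold change divided by the root of F. Age was fitted within each region on 8 libraries, regions within each age on 28, and the difference of age effects on all 56, where 36977 genes were tested. CPM used TMM-scaled library sizes over the 56 libraries. DESeq2 1.42.0, other scalings, filters, a replicate block, the rule of the study and fits without each library were alternatives. The fits were tested on simulated data. No duplicated library was found among 84 pairs, and limits from a count of 0 (3 counts) cover counting error only. All 10 members were described, from each list at most 4 called genes with the smallest adjusted p were named, and the 5 genes most like the members were those of highest Pearson correlation over the 48 duct libraries. Exceptions are marked in the text.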

Additional observations from a re-analysis of the deposited data

Results flagged for a closer look

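In 23 of 140 groups of 4 libraries a single library lay far from the other 3. Chance gives about 1 in 20 for continuous and independent values, which does not hold here, since some groups consist of a few counts or of 0 and 12 of the 23 come from 2 libraries. Library 3 of the efferent ductules at 3 months was highest for Piwil2 (7.225 CPM), Ddx4 (11.49), Mov10l1 (3.612), Tdrd9 (7.608), Tdrd5 (2.299), Tdrd6 (27.7) and Mael (19.16). Library 3 of the vas deferens at 21 months was highest for Piwil2 (3.6 CPM), Tdrd1 (1.575), Tdrd6 (6.806), Mael (3.431) and Asz1 (0.1125).

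The other such libraries were scattered. In the cauda, library 4 at 21 months was highest for Piwil2 (3.395 CPM) and Mael (18.74), and library 4 at 3 months for Ddx4 (4.91) and Tdrd5 (1.275), while library 3 at 3 months was highest for Asz1 (0.1591). Mael was high in initial segment library 2 of 3 months (10.05 CPM) and Asz1 in caput library 3 of 3 months (0.3287). Mov10l1 was high in vas deferens library 3 of 3 months (0.09893 CPM) and in efferent ductule library 4 of 21 months (0.8193). Low values were those of Piwil2 in testis library 1 of 3 months (218.4 CPM) and Ddx4 in corpus library 1 of 3 months (0.8547).

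The age effect of 6 genes differed in 1 duct from the mean of the other 5 by the test of the difference (edgeR). The log2 difference was -3.63 for Mael, -3.14 for Ddx4, -2.80 for Tdrd6 and -2.56 for Piwil1 in the initial segment, 1.32 for Tdrd1 in the caput and 2.06 for Tdrd9 in the vas deferens. The part of testicular RNA, neighbouring tissue or depth in these values was not tested.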

How the results depend on the processing

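All 10 genes were higher in the testis than in the ducts in every alternative run. With age, the 7 calls in the initial segment became 3 with a replicate block and 3 to 6 without a library. The 2 calls in the caput became 1 with DESeq2 size factors, library size only, filterByExpr, the block or Gm42418 left out (chosen after seeing the data), 0 with all 56 libraries in one fit, and 1 to 2 without a library. The 1 call in the corpus became 0 with library size only, all 56 libraries or the rule of the study, and 0 to 1 without a library. The 0 calls in efferent ductules became 1 with library size only, DESeq2, all 56 libraries or the rule of the study, and the 0 calls in the vas deferens became 1 under that rule and 0 to 1 without a library. Calls of a gene higher in 1 duct, 17 at 3 months and 19 at 21 months, became 12 to 22 and 15 to 20 without a replicate number. They became 3 and 6 under the rule of the study for regions. The study asked for a fold change of 4 against the other regions, testis included, and that rule was carried over here to 1 duct against the other ducts. The 6 differences of age effects became 11 with DESeq2, 1 to 7 without a replicate number and 8 without library 3 of the efferent ductules at 3 months, chosen after seeing the data. They became 18 under the thresholds of the study, which reported no test of such differences. In efferent ductules at 3 months, fits without a replicate number gave Ddx4 -0.26 to 1.58, Mov10l1 -0.59 to 2.11, Tdrd6 -0.0094 to 1.47 and Mael -0.28 to 1.65 (log2), the lowest without number 3, and leaving out library 3 of that group alone, chosen after seeing the data, turned Ddx4 to -0.25, Mov10l1 to -0.82 and Mael to -0.19. Of the other values of single genes 1208 kept their side of the threshold, 169 lost it and 3 gained it.

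Pairing of the libraries by replicate number was not shown. Every number correlated above 0.1 in 1 of 21 pairs of regions at 3 months, 0 of 21 at 21 months and 0 of 7 between ages. The 1 pair was corpus with cauda (mean r = 0.148), and caput with corpus at 3 months had a mean r of 0.213. Low correlations do not show that pairing is absent. Beyond the counts given above, the block changed none by over 1.5 times. Low counts limit many duct values, such as those of Mov10l1 and Asz1.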
